A study of Mus musculus with 12 samples.

Results

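The desmosome genes of the epidermis are described here in the skin of the mouse ear, across 4 groups of mice that differed in the cytokine injected. The 10 genes form a list of epidermal desmosome components, chosen with earlier results of these data known (Dsg1a, Dsg1b, Dsg3, Dsc1, Dsc2, Dsc3, Pkp1, Pkp3, Perp and Cdsn). They were matched by symbol to rows of the deposited count table, which lists 50684 genes. All 10 were found, and all 10 were among the 19408 genes that passed the filter on low counts. The mice were 8-week-old female C57BL/6 animals that carried no transgene or deletion named in the labels. Their ear pinnae were injected intradermally with PBS alone, with 1 µg of the recombinant murine cytokine IL-17A, with 1 µg of IL-36γ, or with 1 µg of each of them (IL-17A + IL-36γ), in a volume of 5 µl. Ears were collected after 4 days of treatment, called consecutive in the methods, and RNA-Seq was performed on 3 of the 5 mice of each group, 12 libraries in all. The piece of ear was not separated into epidermis and dermis, so the libraries also hold RNA of dermis, cartilage, muscle, fat and leukocytes. In such bulk samples, fewer cells of a type and less RNA per cell cannot be told apart.

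Desmosomes are the junctions that rivet neighbouring keratinocytes together and anchor their keratin filaments. Desmogleins (Dsg) and desmocollins (Dsc) are cadherins that span the membrane and adhere to their counterparts on the next cell. Plakophilins (Pkp) and plakoglobin bind their tails in the plaque, and desmoplakin ties the plaque to keratins. In the epidermis the cadherins change with depth, with Dsg3 and Dsc3 strongest in the deep layers and Dsg1 and Dsc1 strongest in the upper layers. Cdsn encodes corneodesmosin, which joins the modified desmosomes of the cornified layer, where kallikreins degrade it during shedding. Autoantibodies against desmogleins 1 and 3 cause pemphigus. IL-17A and IL-36γ are cytokines of psoriatic inflammation, and the design with each cytokine alone and both together asks what each adds to the other.

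Cdsn, one of the members that rose with IL-36γ, has its promoter in the RefSeq table of GRCm38.p6. The 250 bases before each of its 2 listed starts are printed to show the sequence beside a gene that changed, with a match to the searched motifs in capitals. Those motifs, looked for on both strands, were TGANTCA (AP-1), AACNGGTT (grainyhead-like factors) and TTCNNNGAA (STAT factors), and no match overlapped another. The first sequence, at chr17:35551878-35552127 on the plus strand, ends at the start of the annotated gene and held none of the 3 motifs.
Cdsn, annotated start: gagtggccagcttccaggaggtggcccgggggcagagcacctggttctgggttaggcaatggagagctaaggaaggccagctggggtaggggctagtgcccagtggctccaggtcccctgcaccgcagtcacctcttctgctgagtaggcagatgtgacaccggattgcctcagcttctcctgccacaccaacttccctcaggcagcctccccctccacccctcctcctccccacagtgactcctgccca
The second, at chr17:35542851-35543100 on the plus strand, belongs to a start 9027 bases upstream and held 1 match to the STAT motif.
Cdsn, upstream start: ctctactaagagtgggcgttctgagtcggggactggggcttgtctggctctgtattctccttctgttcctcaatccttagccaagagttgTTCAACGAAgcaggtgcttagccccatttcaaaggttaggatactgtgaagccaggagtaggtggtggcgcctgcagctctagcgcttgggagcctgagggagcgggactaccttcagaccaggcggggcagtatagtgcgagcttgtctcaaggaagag
Windows of 300 bases around starts, from 250 before to 50 after, held TGANTCA in 7.81%, AACNGGTT in 2.09% and TTCNNNGAA in 8.30% of 32851 promoters.

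The 6 cadherin members lie in 1 cluster on the GRCm38 build at chr18:19960930-20604521, a span of 644 kb that holds 9 desmosomal cadherin genes in the order Dsc3, Dsc2, Dsc1, Dsg1c, Dsg1a, Dsg1b, Dsg4, Dsg3 and Dsg2. The 3 desmocollins are read from the minus strand and the 6 desmogleins from the plus strand. The other members lie apart, Pkp1 at chr1:135871395-135919207 on the minus strand, and Pkp3 at chr7:141078218-141090510, Perp at chr10:18845020-18857073 and Cdsn at chr17:35552128-35557180 on the plus strand. No exon of a member overlapped an exon of another gene. Dsg1a, Dsg1b and Dsg1c are close copies of each other. Of the stretches of 76 bases (the read length) in the annotated transcripts of Dsg1a, 29.0% occurred unchanged in another gene, against 39.3% for Dsg1b and 19.7% for Dsg1c. Reads from those stretches cannot be assigned to 1 copy, so the counts of these genes are uncertain in their absolute level, although read pairs span more than 1 read length and are affected less often. For the 8 other members no stretch was shared.

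Total counts ranged from 25293468 to 34759293 per library, and each member but Dsc2 was counted at least 4266 times in every library. Values below are CPM, counts scaled to a common library total after TMM scaling, which corrects each library for the bulk of its genes. PBS replicate 1 stood apart from the other PBS libraries. It held the highest CPM of its group for all 10 members, and the summed CPM of the members was 10368 in it against 8168 and 8363 in PBS replicates 2 and 3. The summed CPM of 10 skeletal muscle genes was 439.6 in that library against 3703 and 3221, and that of 10 epithelial genes (Cdh1, Esrp1, Esrp2, Grhl2, Rab25, Trp63, Lsr, Krt5, Krt14 and Spint1) was 9702 against 7672 and 7437. The part of tissue make-up in the values of this library was not tested, and counts are given without it where they change. The same epithelial genes, keratins among them, were present in all 12 libraries, as the label of ear skin implies.

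Cell type markers moved with the treatment. Their counts stand beside 23.7% of all genes raised and 20.9% lowered in the combination. Macrophage markers summed to 540.2 to 626 CPM in PBS, 806 to 1139 in IL-17A, 1277 to 1412 in IL-36γ and 1154 to 1249 in IL-17A + IL-36γ, and 7 of 7 rose in the combination. Neutrophil markers summed to 98.4 to 116, 137 to 175, 160.2 to 168 and 159 to 281 CPM in the same order, with 7 of 8 raised in the combination and Ly6g at 0 in the 3 PBS libraries. In PBS that sum was carried by Il1r2, the marker that was not raised (mean 94.6 CPM in PBS and 77.5 in the combination). The sums therefore understate the other neutrophil markers, and the median log2 fold change of the 8 genes was 3.58 in the combination. Skeletal muscle genes summed to 439.6 to 3703, 2322 to 3245, 1290.3 to 2388 and 271 to 1422 CPM, with 3 of 10 lowered. Cartilage genes ran from 660.3 to 885 CPM in PBS to 304 to 455 in the combination and adipocyte genes from 168 to 236 to 54.4 to 110.4, with 6 of 6 tested lowered in each list. The 10 epithelial genes summed to 7437 to 9702 CPM in PBS, 10626 to 13169.8 in IL-17A, 11906 to 14807 in IL-36γ and 15198 to 19342 in the combination, of which Krt14, Krt5 and Rab25 rose and Lsr fell in the combination. That sum was carried by the keratins Krt14 (mean 3987 CPM in PBS and 10397 in the combination) and Krt5 (2973 and 5436), and the median log2 fold change of the 10 genes was 0.09. What these shifts in tissue make-up contribute to the desmosome genes was not tested.

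In ears injected with PBS, the members differed widely in level. Levels of different genes were compared as CPM per kilobase of exon (CPM per kb), since longer transcripts yield more reads. Perp, a tetraspan membrane protein needed for desmosome assembly, had the highest level at 1282 CPM per kb. It was followed by Dsc3 at 363 and Dsg1a at 334, whose ranges over the 3 PBS libraries overlapped. Pkp1 (168), Dsc1 (130.3), Dsg1b (107), Cdsn (85.4) and Pkp3 (71.4 CPM per kb) came next, and each of these overlapped its neighbour in the order. Dsg3 at 25.3 CPM per kb stood below them and Dsc2 at 1.58 was last, with no overlap on either side. The highest and the lowest member thus lay 809-fold apart. With the longest transcript in place of all exons the span was 710-fold, and Cdsn and Pkp3 changed places. The places of Dsg1a and Dsg1b are less certain than those of the others. Of their stretches of 76 bases, 29.0% and 39.3% occur in another gene, and both lengths used here include those stretches. If reads from shared stretches went uncounted, both genes stand too low in this order.

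Against PBS, the combination raised 6 of 10 members, IL-36γ alone raised 5, and IL-17A alone raised none. Over all genes tested, the shares raised were 23.7%, 17.3% and 7.44% in the same order, and the count for IL-17A lies near its share. Dsg1b, Dsc1, Cdsn and Pkp3 rose with IL-36γ with or without IL-17A. Pkp1 passed the test only for IL-36γ alone, and Dsg3 and Dsc2 only for the combination, although none of Pkp1, Dsg3 and Dsc2 differed by the test between the combination and IL-36γ alone. No member was lowered against PBS in the main fit, beside 20.9%, 11.1% and 3.49% of all genes for the combination, IL-36γ and IL-17A. Dsg1a in the combination came closest (adjusted p = 0.0578) and was lowered under 6 of 20 alternative settings, some of which kept TMM scaling. A gene is said to rise or fall where the quasi-likelihood test of edgeR gave an adjusted p below 0.05 over the 19408 genes tested, and to change by more than 2-fold where its log2 fold change was also beyond 1. These 3 comparisons share the PBS libraries, and nothing in the labels shows more than that each library is a separate mouse.

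**Figure D1:**
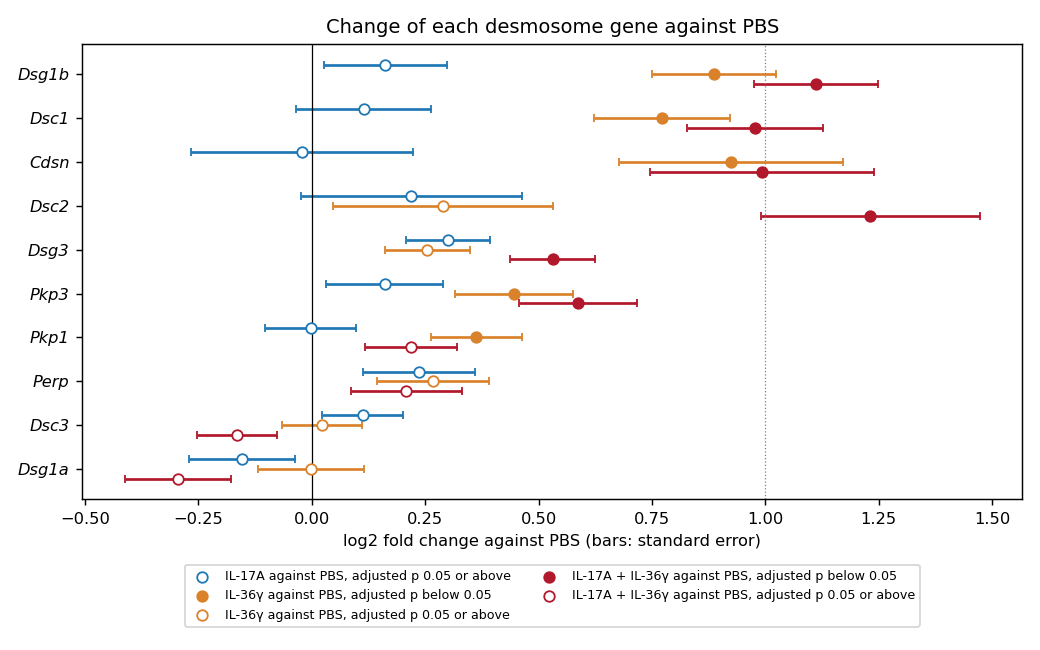
Log2 fold change against PBS (horizontal axis) of the 10 desmosome genes (rows), for each cytokine alone and for the combination. Points are edgeR estimates with their standard errors, n = 3 mice per group, filled where the adjusted p was below 0.05; the dotted line marks a log2 fold change of 1. Filled points of the combination lie between 0.53 (Dsg3) and 1.23 (Dsc2), and no point of IL-17A is filled.

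The count for IL-36γ, 5 of 10 raised, stood against 17.3% of all genes raised, while 0 of 10 lowered stood against 11.1%. The median log2 fold change was 0.33 over the members and −0.01 over all genes tested. None rose by more than 2-fold, as 5.11% of all genes did. An unadjusted p below 0.05 was reached by 6 members, beside 8116 of the 19408 genes tested. Past 2-fold, the count was 2 without PBS replicate 1 and 1 without IL-36γ replicate 3, and 0 by DESeq2. The count of raised members depended on single libraries. It was 2 with PBS replicate 2, PBS replicate 3 or IL-36γ replicate 1 left out, 3 without IL-36γ replicate 2, and 7 when either PBS replicate 1 or IL-36γ replicate 3 was left out. It was also 3 with scaling by library size only and 3 with a fit of the 2 groups alone. The share of all genes called was computed for the main fit only. Counts of members under other settings, here and below, therefore have no such share beside them.

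For the combination, 6 of 10 members were raised, against 23.7% of all genes, and 0 of 10 were lowered, against 20.9%. The median log2 fold change was 0.56 over the members and −0.03 over all genes. Dsg1b and Dsc2 rose by more than 2-fold, 2 of 10 members beside 7.35% of all genes. The count of raised or lowered members stayed between 6 and 8 when any 1 library was left out. The count past 2-fold was 4 without PBS replicate 1, without IL-17A + IL-36γ replicate 2 or without IL-17A + IL-36γ replicate 3, and 1 without IL-17A + IL-36γ replicate 1. Dsc1 and Cdsn lay just under the threshold and passed it where the count was 4, and Dsc2 stood at 0.92 where it was 1.

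**Figure D2:**
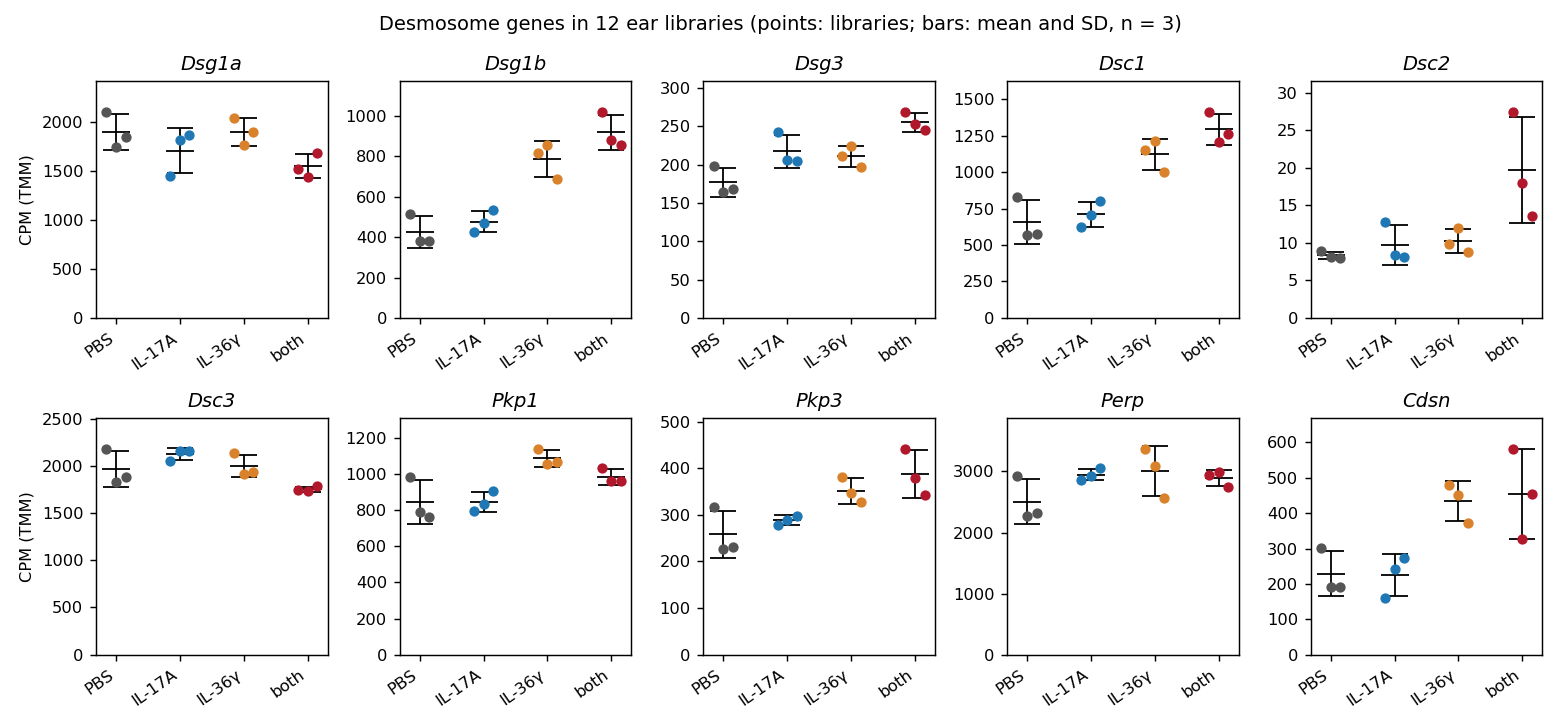
CPM (vertical axes, linear from 0, a scale for each gene) of the 10 desmosome genes in the 12 libraries, by group on the horizontal axis, where "both" is IL-17A + IL-36γ. Points are mice, and bars give the mean and SD, n = 3. Dsg1b and Dsc1 lie higher in all 6 libraries with IL-36γ than in the 6 without it, whereas Perp overlaps between PBS and every other group.

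Among Dsg1a, Dsg1b and Dsg3, Dsg1b changed most in the combination. Its CPM was 514, 379 and 382 in the 3 PBS mice and 428, 468 and 533 in the IL-17A mice. After IL-36γ it was 816, 857 and 687, and after IL-17A + IL-36γ 1019.9, 879.7 and 858. Every library with IL-36γ lay above every library without it. The log2 fold change against PBS was 0.89 ± 0.14 (SE, adjusted p = 9.03e-04) for IL-36γ, a 1.85-fold rise, and 1.11 ± 0.14 (SE, adjusted p = 9.68e-05) for the combination, a 2.16-fold rise. For IL-17A alone it was 0.16 ± 0.14 (SE, adjusted p = 0.441).

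Dsg1a, the neighbouring copy, stood at 2105, 1747 and 1850.3 CPM in PBS. It measured 1449, 1817 and 1865 after IL-17A, 2041, 1763 and 1896 after IL-36γ and 1518, 1444 and 1685 after the combination. The 3 mice of the combination lay below the 3 PBS mice and below the 3 IL-36γ mice, but the test against PBS was not passed, with a log2 fold change of −0.29 ± 0.12 (SE, adjusted p = 0.0578). This value passed the threshold under 6 of 20 alternative settings, with adjusted p between 0.0011 and 0.164 over all 20. For IL-36γ alone the log2 fold change was 0.00 ± 0.12 (SE, adjusted p = 0.996).

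The balance between the copies can be read within each library, free of its scaling. Dsg1b made up 19.6%, 17.8% and 17.1% of the counts of Dsg1a and Dsg1b in the PBS mice and 22.8%, 20.5% and 22.2% in the IL-17A mice. In the IL-36γ mice it made up 28.6%, 32.7% and 26.6%, and in the mice given both cytokines 40.2%, 37.9% and 33.7%. No ranges of groups overlapped, and the group means ran from 18.2% ± 1.29 (SD, n = 3) in PBS over 21.8% ± 1.20 in IL-17A and 29.3% ± 3.13 in IL-36γ to 37.3% ± 3.27 in the combination. The 6 mice with IL-36γ averaged 33.3% and the 6 without it 20.02%, a difference of 13.3 percentage points. Since the copies share sequence, the counts were also divided by the number of 76-base stretches found in no other gene, 3984 for Dsg1a and 2361 for Dsg1b. The share of Dsg1b was then 29.2%, 26.8% and 25.9% in the PBS mice and 53.1%, 50.7% and 46.2% in the mice given both cytokines. This second reading assumes that reads matching several genes were left uncounted, which the sources used here do not state. The share was chosen after the values of both genes had been seen, so it is a description and no test of it is given.

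**Figure D3:**
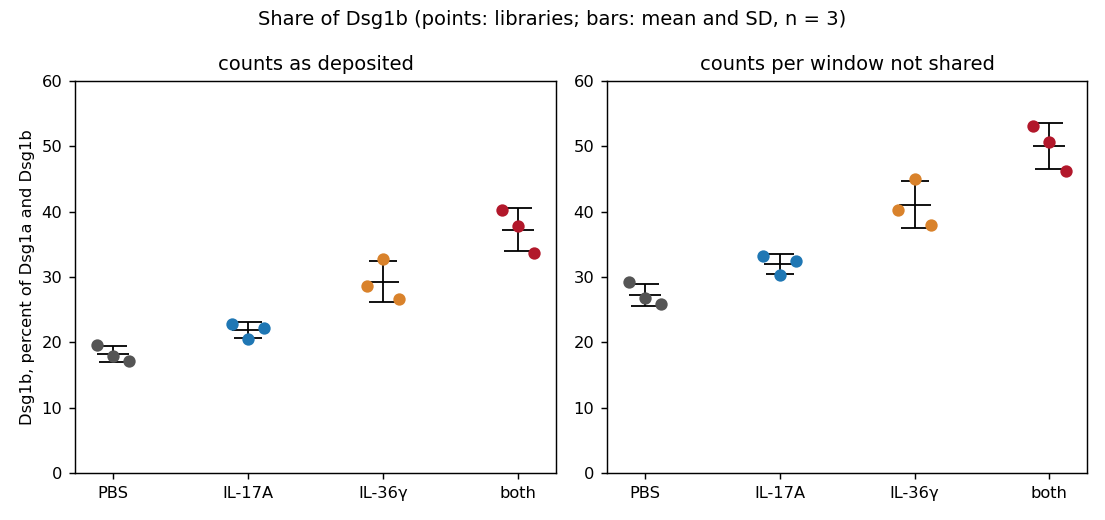
Share of Dsg1b in the sum of Dsg1a and Dsg1b (vertical axis, percent) in the 12 libraries by group, from the deposited counts (left) and from counts per stretch of sequence not shared with another gene (right). Points are mice, bars the mean and SD, n = 3, and "both" is IL-17A + IL-36γ. From the left panel, PBS mice lie between 17.1% and 19.6% and mice given both cytokines between 33.7% and 40.2%.

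Dsg3, the desmoglein of the deep layers, was measured at 198, 164 and 168 CPM in PBS, 242, 206 and 204 after IL-17A, 211, 225 and 197 after IL-36γ and 269, 252 and 245 after the combination. The combination lay above every other library, by a log2 fold change of 0.53 ± 0.09 (SE, adjusted p = 8.30e-04) against PBS. IL-17A alone gave 0.30 ± 0.09 (SE, adjusted p = 0.0573) and IL-36γ alone 0.25 ± 0.09 (SE, adjusted p = 0.0595), which missed the threshold, but without PBS replicate 1 these values were 0.39 (adjusted p = 0.0116) and 0.35 (adjusted p = 0.0115).

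Of the desmocollins, Dsc1, the form of the upper layers, followed Dsg1b. Dsc1 was at 829, 569 and 574 CPM in PBS and 626, 708 and 800.2 after IL-17A. It reached 1151, 1214 and 1003 after IL-36γ and 1414, 1207 and 1262 after IL-17A + IL-36γ, again with all libraries of IL-36γ above all libraries without it. The log2 fold change against PBS was 0.77 ± 0.15 (SE, adjusted p = 0.00322) for IL-36γ and 0.98 ± 0.15 (SE, adjusted p = 3.44e-04) for the combination.

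Dsc2, a broadly expressed desmocollin and the scarcest member in the ear, stood at 8.91, 8.13 and 8.03 CPM in PBS and at 12.8, 8.34 and 8.05 after IL-17A. After IL-36γ it was 9.85, 12.0 and 8.81, and after both cytokines 27.4, 17.9 and 13.6. The 3 mice of the combination exceeded all others but were widely spread, and the log2 fold change against PBS was 1.23 ± 0.24 (SE, adjusted p = 0.00163), the largest of the members. It was 0.22 ± 0.24 (SE, adjusted p = 0.569) for IL-17A and 0.29 ± 0.24 (SE, adjusted p = 0.383) for IL-36γ.

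Dsc3, the partner of Dsg3 in the deep layers, measured 2181, 1827 and 1881 CPM in PBS, 2046, 2159 and 2161 after IL-17A, 2131, 1914 and 1939 after IL-36γ and 1739.7, 1730.2 and 1783 after the combination. Mice given both cytokines lay below all other mice, but the difference from PBS was −0.16 ± 0.09 (SE, adjusted p = 0.149). Hence the desmocollins moved unequally, Dsc1 and Dsc2 upward in the combination and Dsc3 with no call against PBS.

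In the plaque, Pkp3 rose and Pkp1 rose in 1 comparison. Pkp3, which binds most desmosomal cadherins and desmoplakin, was at 317, 227 and 231 CPM in PBS, 278, 290.0 and 298 after IL-17A, 381, 347 and 327 after IL-36γ and 442, 379 and 342 after the combination. Its log2 fold change was 0.45 ± 0.13 (SE, adjusted p = 0.0236) for IL-36γ and 0.59 ± 0.13 (SE, adjusted p = 0.0034) for the combination. The PBS range, raised by PBS replicate 1, stayed below both of these groups. Pkp1, whose loss in humans gives skin fragility, was at 984, 792 and 762 CPM in PBS, 795, 834 and 904 after IL-17A, 1141, 1054 and 1069 after IL-36γ and 1035, 959 and 959 after the combination. It differed from PBS by 0.36 ± 0.10 (SE, adjusted p = 0.0194) for IL-36γ and by 0.22 ± 0.10 (SE, adjusted p = 0.0957) for the combination, where 2 of 3 mice lay within the PBS range. The calls of Pkp3 and Pkp1 for IL-36γ were lost with PBS replicate 2, PBS replicate 3 or IL-36γ replicate 1 left out, and that of Pkp3 also without IL-36γ replicate 2. Without those libraries in turn, the adjusted p was 0.0972, 0.106, 0.106 and 0.0577 for Pkp3, and 0.0775, 0.0934 and 0.0817 for Pkp1. Both calls were also lost with scaling by library size only, at 0.30 (adjusted p = 0.0559) for Pkp3 and 0.22 (adjusted p = 0.08) for Pkp1, with scaling to the epithelial genes, at 0.21 (adjusted p = 0.0522) and 0.12 (adjusted p = 0.185), and with a fit of the 2 groups alone, at 0.44 (adjusted p = 0.0625) and 0.36 (adjusted p = 0.0703).

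Perp, the most abundant member, passed no test against PBS. Its CPM ranged over 2263 to 2929 in PBS, 2863 to 3051 after IL-17A, 2567 to 3374 after IL-36γ and 2742 to 2993 after the combination, and the PBS range reached into each of the others. The log2 fold changes were 0.24 ± 0.12 (SE, adjusted p = 0.211), 0.27 ± 0.12 (SE, adjusted p = 0.121) and 0.21 ± 0.12 (SE, adjusted p = 0.186). With PBS replicate 1 left out they came to 0.37 (adjusted p = 0.0401), 0.40 (adjusted p = 0.0198) and 0.34 (adjusted p = 0.0292).

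Cdsn was at 303, 192 and 192 CPM in PBS and 160.3, 241 and 274 after IL-17A. It was 479.5, 451 and 371 after IL-36γ and 583, 327 and 454 after both cytokines. All 6 libraries with IL-36γ lay above the 6 without it, although the spread within groups was wide. The log2 fold change against PBS was 0.92 ± 0.25 (SE, adjusted p = 0.0165) for IL-36γ and 0.99 ± 0.25 (SE, adjusted p = 0.00673) for the combination. The call for IL-36γ was lost when PBS replicate 2, PBS replicate 3, IL-36γ replicate 1 or IL-36γ replicate 2 was left out, with adjusted p of 0.0654, 0.0743, 0.0635 and 0.0501, while the log2 fold change was at least 0.69 under all 20 alternative settings.

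IL-17A alone raised 0 and lowered 0 of 10 members by edgeR, against 7.44% and 3.49% of all genes, and counts of 0 of 10 lie near these shares. A single member, Dsg3, had an unadjusted p below 0.05, beside 6013 of the 19408 genes tested. The likelihood ratio test of DESeq2 called 1 member. The log2 fold changes of the members lay between −0.15 (Dsg1a) and 0.30 (Dsg3), with a median of 0.14 against 0.04 over all genes. The result leans on PBS replicate 1, without which 3 members were raised, a count with no share over all genes beside it.

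The combination was then compared with each cytokine alone. Against IL-17A, 5 of 10 members were higher in the combination, beside 15.1% of all genes, and 1 was lower, beside 17.7%. Cdsn at 1.01 ± 0.25 (SE, adjusted p = 0.00894) and Dsc2 at 1.01 ± 0.24 (SE, adjusted p = 0.00798) were higher by more than 2-fold, as were 4.46% of all genes. Dsg1b at 0.95 (adjusted p = 6.15e-04), Dsc1 at 0.86 (adjusted p = 0.00153) and Pkp3 at 0.43 (adjusted p = 0.0255) were also higher. Dsc3 was the member that was lower, by a log2 fold change of −0.28 ± 0.09 (SE, adjusted p = 0.0316), and its 3 libraries of the combination lay below the 3 of IL-17A. The number past 2-fold was 0 without IL-17A + IL-36γ replicate 1, 1 without IL-17A replicate 1 or without IL-17A replicate 2, and between 2 and 3 without any other library. It was also 0 with libraries scaled to epithelial genes and the number of members that differed was 4 without IL-17A replicate 2, without IL-17A replicate 3 or without IL-17A + IL-36γ replicate 1.

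Against IL-36γ, 0 of 10 members differed in the combination by edgeR, where 0.0206% of all genes differed. An unadjusted p below 0.05 was reached by 3 members, beside 2938 of the 19408 genes tested, and DESeq2 called 1 of these members. Dsc2 came closest with a log2 fold change of 0.94 ± 0.24 (SE, adjusted p = 0.127), and its call by DESeq2 and without the filter on low counts had adjusted p of 0.0236 and 0.0347. For Dsg1a the value was −0.29 ± 0.12 (SE, adjusted p = 0.273), with no overlap between the groups. Misses here do not show that both treatments act alike on the members, since the test found only 4 genes of 19408.

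Set directly against each other, IL-36γ left 4 of 10 members higher than IL-17A did, beside 4.37% of all genes. These were Dsg1b at 0.72 ± 0.14 (SE, adjusted p = 0.0119), Dsc1 at 0.66 ± 0.15 (SE, adjusted p = 0.023), Pkp1 at 0.37 ± 0.10 (SE, adjusted p = 0.0466) and Cdsn at 0.95 ± 0.25 (SE, adjusted p = 0.0389). The count fell to 0 without IL-17A replicate 2 or without IL-36γ replicate 2, to 1 without IL-17A replicate 1 or without IL-36γ replicate 1, and to 2 without IL-17A + IL-36γ replicate 3. The libraries of these groups did not overlap in Dsg1b, Dsc1, Pkp1 or Cdsn, nor in Pkp3, which had no call at 0.29 (adjusted p = 0.194). The share of all genes without overlap was not computed for this or any other comparison.

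No member was called for an interaction, that is, a change by IL-17A that differed between ears with and without IL-36γ. The edgeR test called 0 of 10 members and 0.551% of all genes. An unadjusted p below 0.05 was reached by 1 member, beside 4373 of the 19408 genes tested, and DESeq2 called 1 member, Dsc3. The estimates furthest from 0 on the log2 scale were 0.72 ± 0.34 (SE, adjusted p = 0.233) for Dsc2 and −0.30 ± 0.13 (SE, adjusted p = 0.188) for Dsc3. Under DESeq2 the adjusted p of Dsc3 was 0.0441. Misses here do not show that the members lack an interaction, since the edgeR test called only 107 genes of 19408.

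How the members moved relative to epithelial genes was examined by scaling each library to the mean log level of the 10 epithelial genes in place of TMM. With TMM scaling, Krt14, Krt5 and Rab25 among them stood in the combination at 1.38, 0.87 and 0.82, and Lsr at −0.46, on the log2 scale. The scaling moved the median of all genes to −0.33 for the combination, so that every gene is read relative to that shift. Dsg1b at 0.81 (adjusted p = 1.03e-04), Dsc2 at 0.91 (adjusted p = 0.00619), Cdsn at 0.70 (adjusted p = 0.0124) and Dsc1 at 0.68 (adjusted p = 4.34e-04) stayed above PBS. Pkp3 at 0.29 (adjusted p = 0.00923) and Dsg3 at 0.23 (adjusted p = 0.0473) also did. Dsg1a at −0.59 (adjusted p = 0.0011) and Dsc3 at −0.47 (adjusted p = 5.96e-04) fell below PBS, while Pkp1 and Perp, at −0.08 and −0.09, turned from above to below 0 with no call under either scaling. No member passed 2-fold under this scaling. For IL-36γ against PBS the median of all genes moved to −0.27, and 3 members were raised, Dsg1b at 0.65 (adjusted p = 0.00116), Dsc1 at 0.54 (adjusted p = 0.0042) and Cdsn at 0.69 (adjusted p = 0.0208), while 1, Dsc3, was lowered at −0.22 (adjusted p = 0.0413). Scaling by library size alone moved the median of all genes to −0.17, and Dsg1a at −0.44 (adjusted p = 0.00933) and Dsc3 at −0.31 (adjusted p = 0.00696) were lower there too.

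**Figure D4:**
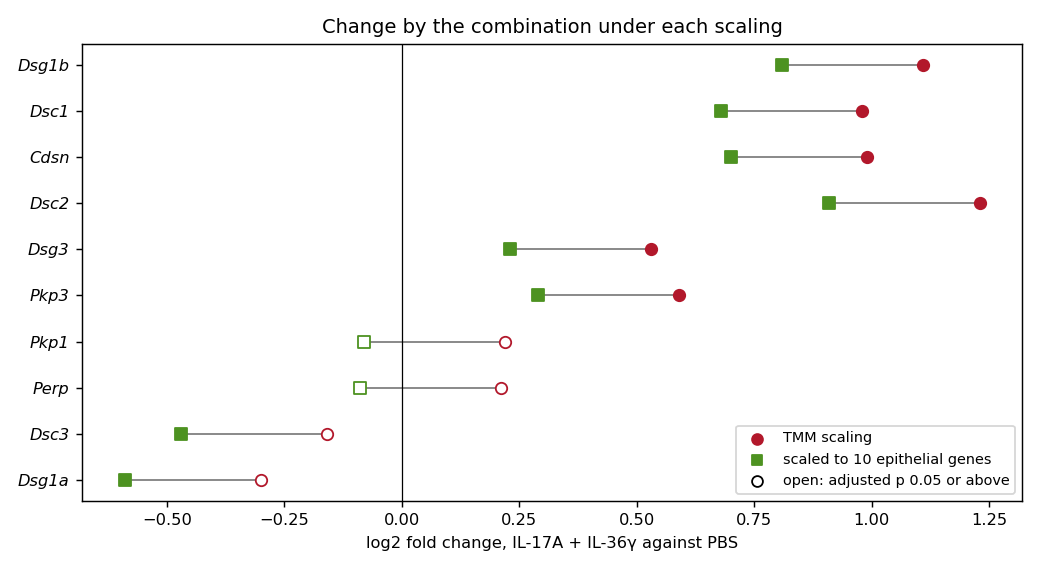
Log2 fold change of the combination against PBS (horizontal axis) for the 10 desmosome genes (rows), with TMM scaling (circles) and with libraries scaled to 10 epithelial genes (squares); filled symbols have an adjusted p below 0.05, n = 3 mice per group. Dsg1b moves from 1.11 to 0.81 and Dsg1a from −0.29 to −0.59. A change of scaling moves all genes nearly alike, so the gap between these 2 genes stays by construction.

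Across the 12 libraries, members fell into unlike patterns, described here by Pearson's r of log2 CPM without a test, since libraries of a group share their treatment. Dsg1b and Dsc1 followed each other most closely (r = 0.995), and both followed Pkp3 (r = 0.941 and 0.944) and Cdsn (r = 0.933 and 0.949). Pkp1 followed Cdsn (r = 0.901) and Dsc1 (r = 0.861). Dsg3 and Dsc2 had r = 0.860, but they did not form a pattern apart, since Dsg3 also followed Pkp3 (r = 0.804), Dsg1b (r = 0.743) and Dsc1 (r = 0.729). The lowest value, −0.732, was between Dsg1a and Dsc2, which was high in mice in which Dsg1a was low. Among all genes tested, Capn12 was most like Dsg1b (r = 0.992), with Usp8 (0.991) and Slc34a2 (0.989) next. For Dsc1 the first were Thop1 (0.992), Capn12 (0.992) and Slc34a2 (0.989), so that Dsg1b and Dsc1 had 2 of 3 nearest genes in common. Tmem54 (0.993), Lypd5 (0.992) and Smpd3 (0.988) were nearest to Cdsn, and Lypd3 (0.991) to Pkp3. Nearest to Perp was Cebpb (0.966), to Dsg3 Vmp1 (0.983), to Dsc2 Tmprss11b (0.977), to Dsc3 Ccdc85b (0.965), to Pkp1 Fam234a (0.957) and to Dsg1a Paqr5 (0.950).

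Of 8 other desmosome genes, the combination raised 2 and lowered 2, shares near those of all genes (23.7% raised and 20.9% lowered), with a median log2 fold change of −0.12. Evpl, encoding envoplakin of the cornified envelope, rose by 0.60 (adjusted p = 2.18e-04) and Jup, encoding plakoglobin, by 0.53 (adjusted p = 0.00313). Dsp, encoding desmoplakin, at 0.12 (adjusted p = 0.293), and Ppl, encoding periplakin, at 0.21 (adjusted p = 0.139), passed no test. Dsg1c, the copy of Dsg1 that was scarce in the ear at a mean of 9.25 CPM in PBS, stood at 4.21 CPM in the combination, with a log2 fold change of −1.13 (adjusted p = 0.00145). Dsg2, the desmoglein of simple epithelia, was at −0.36 (adjusted p = 0.00766), also lower. Pkp2, at −0.38 (adjusted p = 0.17), and Dsg4 of the hair, at −1.19 (adjusted p = 0.201) and below 1 CPM in every group mean, had no call. Hence Dsg1b rose, Dsg1c fell and Dsg1a had no call, within the same cluster of copies. Scaled to the epithelial genes, the number of these 8 genes past 2-fold was the same, 1.

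Proteases that act on desmosomes of the cornified layer, and their inhibitors, had a median log2 fold change of 0.54 in the combination. That median lies between 5 raised kallikreins, at 0.98 or more, and genes with no call, so it describes neither part. The combination raised 5 of 10 proteases and inhibitors, beside 23.7% of all genes. These were the kallikreins Klk13 (5.48 (adjusted p = 2.96e-05)), Klk14 (3.91 (adjusted p = 3.44e-04)), Klk6 (3.58 (adjusted p = 2.72e-04)), Klk8 (1.66 (adjusted p = 2.25e-04)) and Klk7 (0.98 (adjusted p = 0.00121)). IL-36γ alone raised the same 5, beside 17.3% of all genes. Klk14 remained scarce, at a mean of 1.08 CPM in the combination. Klk5, which degrades corneodesmosin, was at 0.07 (adjusted p = 0.811), and its inhibitor Spink5 at −0.14 (adjusted p = 0.377). IL-17A alone raised Klk13, at 1.97 (adjusted p = 0.0391), and no other gene of this list, beside 7.44% of all genes raised.

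The counts of the next 4 lists stand beside the same 23.7% raised and 20.9% lowered over all genes. Among 8 transcription factors of keratinocyte junctions and differentiation, the combination raised Zfp750 (0.56 (adjusted p = 0.00275)), Ovol1 (0.55 (adjusted p = 0.0341)) and Grhl3 (0.48 (adjusted p = 0.0144)), all by less than 2-fold. Trp63, encoding p63, the regulator of stratified epithelia, was at −0.09 (adjusted p = 0.367), and the other 4 had no call. Of 9 adherens junction genes, Cdh3 (0.61 (adjusted p = 0.00247)) and Nectin1 (0.70 (adjusted p = 0.001)) rose and Afdn (−0.26 (adjusted p = 0.0191)) fell, and Cdh1, encoding E-cadherin, was at 0.07 (adjusted p = 0.553). Of 8 tight junction genes, 2 rose, F11r (0.32 (adjusted p = 0.00292)) and Tjp1 (0.21 (adjusted p = 0.018)), and 3 fell, with Cgn, encoding cingulin, furthest at −1.001 (adjusted p = 8.00e-04). In the hemidesmosome, which fixes basal cells to the basement membrane, 3 of 6 fell, Dst (−0.87 (adjusted p = 6.35e-04)), Col17a1 (−0.42 (adjusted p = 0.00202)) and Plec (−0.35 (adjusted p = 0.0174)), and none rose. The median was 0.07 for the transcription factors, 0.07 for the adherens junction, −0.10 for the tight junction and −0.25 for the hemidesmosome. That of the 10 epidermal desmosome genes was 0.56. Members and lists were chosen with earlier results of these data known, so these medians are a description.

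**Figure D5:**
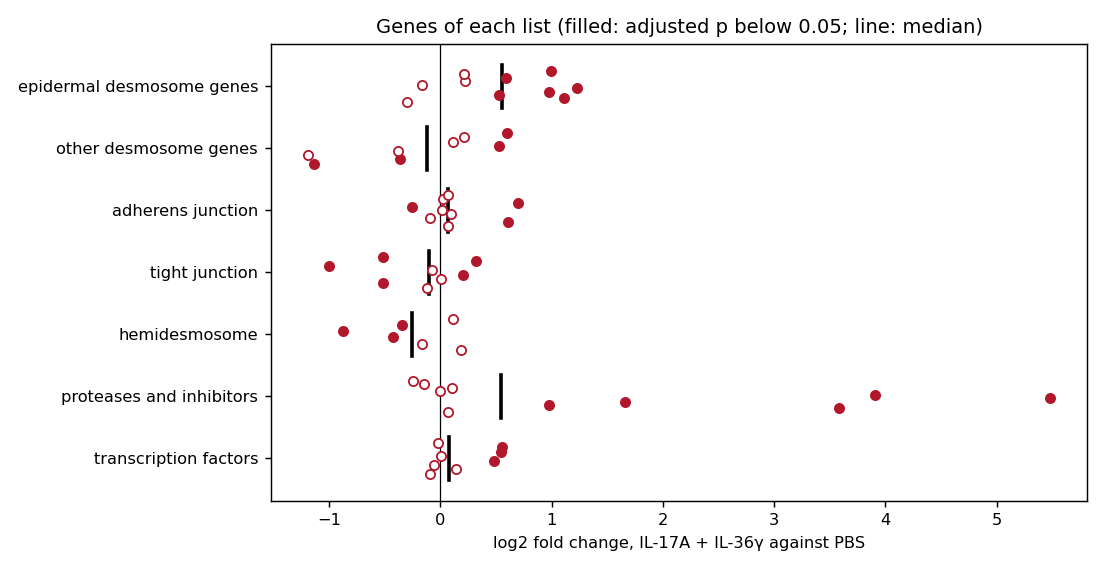
Log2 fold change of the combination against PBS (horizontal axis) for single genes (points) of 7 lists (rows), filled where the adjusted p was below 0.05, with the median of each list as a vertical line. The median of the epidermal desmosome genes lies at 0.56 and that of the hemidesmosome genes at −0.25.

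Layer markers of the epidermis did not move as a block beside the members. Their counts, too, stand beside 23.7% of all genes raised and 20.9% lowered. In the combination, the suprabasal keratin Krt1 rose by 4.21 (adjusted p = 3.10e-05), while its partner Krt10 was at 0.43 (adjusted p = 0.1). Of 6 granular layer genes, Casp14 (3.01 (adjusted p = 2.01e-05)), Flg (2.03 (adjusted p = 0.00515)), Ivl (1.53 (adjusted p = 5.51e-05)) and Hrnr (0.66 (adjusted p = 0.0168)) rose, Flg2 (−2.17 (adjusted p = 9.71e-04)) fell and Lor was at −0.02 (adjusted p = 0.942). In the basal list, Krt14 (1.38 (adjusted p = 1.39e-04)) and Krt5 (0.87 (adjusted p = 2.67e-04)) rose, and Krt15 (−1.18 (adjusted p = 1.06e-04)) and Col17a1 fell. All 4 stress keratins rose, with Krt6b at 7.20 (adjusted p = 0.00314) and Krt16 at 5.85 (adjusted p = 5.70e-04). A test of the members against these layers was not made.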

How the data were processed

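RNA-Seq was performed on ears of 12 mice, 3 in each of 4 groups assigned from the sample labels. Per the study's methods, total RNA was depleted of ribosomal RNA and sequenced in pairs of 76 cycles from stranded libraries, and alignment to mm10 by STAR 2.5.2b and counting by featureCounts (Subread 1.5.1) were done by the authors. The release of the annotation, the strand setting and the treatment of reads with several matches are not given in the sources used here. The deposited table holds raw counts per Ensembl gene, with total counts of 25293468 to 34759293 per library. Deposited tables of the authors' own comparisons (DESeq2 1.30.0) were used for gene symbols only, which cover 47092 of the 50684 genes, and 50374 were found in GENCODE vM21 (GRCm38), which gave positions and lengths.

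The software was edgeR 4.0.16 and DESeq2 1.42.0 in R 4.3.3. Genes were filtered by filterByExpr (minimum count 10), TMM factors were applied, and 1 fit of the 4 groups was tested by edgeR quasi-likelihood, with Benjamini-Hochberg adjustment over 19408 genes. The fold change threshold follows the study's methods. CPM was computed from the deposited counts, and log2 CPM for likeness used a prior count of 2. The common biological coefficient of variation was 14.2%. With 3 mice per group, p-values weigh a difference between groups against the spread between mice within groups. That spread was estimated over the 12 libraries, with information shared across genes, and covers these mice only. No libraries of a group were copies (chi-square per gene 6.56 to 58.4 over 12 pairs). The fit was tested on simulated data. Alternatives were the likelihood ratio test of DESeq2, other scalings and filters, fits of the groups compared alone, a replicate block and each library left out. All 10 members are named, list genes are given as examples, and the 3 genes most correlated with a member were taken over all genes tested. The members and lists were chosen with earlier results of these data known. Adjusted p below 0.05 without a fold threshold, the share of Dsg1b and its alternatives were added after the data were seen.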

Additional observations from a re-analysis of the deposited data

How the results depend on the processing

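Under 20 alternative settings, the number of members raised or lowered by the combination against PBS stayed at 6 to 8, and the share of Dsg1b differed between these groups by 19.1 percentage points, 17.6 to 20.8 with a library left out and 22.7 with counts divided by unshared stretches. Counted by adjusted p alone, without the fold change threshold, the members that differed numbered 5 for IL-36γ against PBS, 6 for the combination against PBS, 6 for it against IL-17A, 4 for IL-36γ against IL-17A, and the other desmosome genes that differed numbered 4. The likelihood ratio test of DESeq2 called 1 member for IL-17A against PBS (Dsg3), 1 for the combination against IL-36γ (Dsc2) and 1 for the interaction (Dsc3), where edgeR called 0. Without the filter on low counts, 1 member (Dsc2) differed between the combination and IL-36γ. With library size only, 3 members were raised by IL-36γ, and 1 passed 2-fold in the combination. Scaled to epithelial genes, 0 passed 2-fold in the combination against PBS and 0 against IL-17A. A fit of the 2 groups alone left 3 members raised by IL-36γ. Dsc3 for IL-36γ turned from 0.02 to −0.13 with library size only and to −0.22 (adjusted p = 0.0413, a lowered member) with epithelial scaling, and in the combination Pkp1 turned to −0.08 and Perp to −0.09 with epithelial scaling. The length of the longest transcript gave a 710-fold span of levels, in place of 809-fold. Shares of all genes called under the alternatives were not computed.

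With 1 library left out, the lone pair of its group was assumed to vary like the others. Members raised or lowered then numbered 0 to 3 for IL-17A (3 without PBS replicate 1), 2 to 7 for IL-36γ, 4 to 8 for the combination against IL-17A, 0 against IL-36γ, and 0 to 4 for IL-36γ against IL-17A. Past 2-fold they numbered 0 to 2 for IL-36γ, 1 to 4 for the combination against PBS, 0 to 3 against IL-17A, and 0 to 1 for IL-36γ against IL-17A (1 without IL-17A replicate 3 or without IL-36γ replicate 3). The log2 fold change for IL-36γ then ran from −0.08 to 0.08 for Dsg1a and from −0.05 to 0.11 for Dsc3, both near 0. The span of levels ran from 766-fold to 837-fold.

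The labels number the mice 1 to 3 in each group. Deviations of mice with the same number had r from −0.20 to 0.35 over 18 pairs, 9 above 0.1 and a median of 0.10, against a median of −0.05 with 9 of 36 above 0.1 for mice with different numbers. Not every pair passed 0.1, so the numbers were not used as pairs. With the replicate number as a block, 1 member (Dsg3) was called for IL-17A and 0 passed 2-fold for the combination against IL-17A, and other numbers of called members stayed within 1.5 times. The cause of these shifts was not tested. The groups hold 3 mice each, and depth limits Dsc2, counted 200 to 703 times per library.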

Other observations

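Appendages and dermis beside the epidermis were measured in the same ears. Over all genes tested, the combination raised 23.7% and lowered 20.9%. Of 6 sebaceous gland genes, the combination lowered 3 against PBS, Awat2, Mc5r and Scd1, and raised none. Scd1, encoding stearoyl-CoA desaturase, was at −1.19 (adjusted p = 5.75e-04) on the log2 scale, and Awat2, an enzyme of wax synthesis, at −0.93 (adjusted p = 0.00339). The summed level of the list was 5966 to 9799 CPM in PBS and 3268 to 4110.3 CPM in the combination, ranges that do not overlap. Of 8 hair follicle genes, 2 were lowered, Tchh (−0.85 (adjusted p = 0.0114)) and Msx2 (−0.51 (adjusted p = 0.0312)), a share near that of all genes. The list summed to 43.7 to 57.8 CPM in PBS and 20.5 to 30.6 CPM in the combination. Of 6 fibroblast genes, 2 were lowered, Col1a2 (−0.61 (adjusted p = 0.0278)) and Dcn (−0.31 (adjusted p = 0.0293)). Among 5 spinous layer genes, Krt1, Krtdap (0.57 (adjusted p = 0.00668)) and Lgals7 (1.04 (adjusted p = 8.71e-04)) rose.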
